A study of Homo sapiens with 8 samples.

Results

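The 40 genes described here encode nucleolar proteins that build ribosomes. They were taken by name from the 23391 genes of the deposited count table, and all 40 were found and passed the filter on low counts, as did 13856 genes in all. Messenger RNA was sequenced from DU145 cells, an established human prostate cancer cell line, stably transfected with the empty pcDNA3.1 vector (DU145-pc3.1) or with an Esrrb expression vector (DU145-Esrrb). Esrrb is the orphan nuclear receptor estrogen related receptor beta, and DY131 is a synthetic ligand that acts on Esrrb and its relative Esrrg. Each pool was left untreated or treated with 3 μM DY131, which gave 4 groups of 2 libraries. For RNA collection and for DY131 treatment the cells were kept in medium with charcoal-stripped serum. All came from selected pools of transfected cells, not from single clones. No length of treatment is given for these libraries, and no vehicle for the untreated cells is named. Whether the 2 libraries of a group come from separate transfections is not clear from the methods. The p-values rest on the spread between libraries of the same group, estimated over the 4 groups together. That spread differed between groups. The chi-square per degree of freedom between 2 libraries, which grows with it, was 2.6 in untreated DU145-pc3.1 and 1.8 in untreated DU145-Esrrb cells. After DY131 it was 7.1 in DU145-pc3.1 and 1.29 in DU145-Esrrb cells.

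Ribosome assembly starts in the nucleolus, where RNA polymerase I transcribes a long precursor of ribosomal RNA. Small nucleolar ribonucleoproteins (snoRNPs) of the box C/D and box H/ACA kinds methylate and pseudouridylate this precursor. The small subunit processome cleaves it and folds the future small (40S) subunit, and a further set of factors, with the PeBoW complex among them, matures the large (60S) subunit. Genes of this program are known targets of the transcription factor MYC and are high in growing tumor cells. The values below are levels of messenger RNA of these factors, and neither ribosomal RNA nor ribosomes were measured.

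Between 7858743 and 11551690 reads per library were counted, the 2 lowest totals being those of DY131-treated DU145-Esrrb cells. ESRRB reads went with the labelled pool, with 0 to 3 reads in the 4 DU145-pc3.1 libraries and 99 to 143 in the 4 DU145-Esrrb libraries. Among the cell type markers given here, the epithelial KRT8, KRT18, KRT19, CDH1 and EPCAM had at least 478 reads in every library. The markers KLK2, KLK3, TMPRSS2, KRT5, PTPRC, CD3E, COL1A2, LUM and CDH5 had at most 3 reads, CD14, PDGFRB, PECAM1 and VWF at most 15, and COL1A1 21 to 61. The DY131-treated DU145-Esrrb libraries stood apart in a feature tied to gene structure. Across 13665 genes, the log2 fold change after DY131 in that pool fell with the share of 50-base windows of a transcript that cross an exon junction (Spearman's rho -0.374), and in DU145-pc3.1 cells rho was 0.0103. Genes are not independent replicates, and these values are descriptions. The members have more such windows than other genes, with a median share of 24.2% against 14.3% over all genes. Counts and fold changes in DU145-Esrrb cells are therefore given as tested and also after a correction for this share, while levels per library are not corrected. The cause of the relation was not tested. In these bulk samples, fewer cells of a type and less RNA per cell cannot be told apart.

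After DY131, the members were higher in the cells without the Esrrb vector. In DU145-pc3.1 cells, 34 of 40 rose and 0 fell, against 18.9% of all tested genes that rose and 18.5% that fell (edgeR's quasi-likelihood test, adjusted p under 0.05 over all tested genes). The median log2 fold change of the 40 members was 0.51, against -0.0026 over all tested genes. In DU145-Esrrb cells, 25 members rose and 7 fell, against 29.2% and 29.5% of all tested genes, with a median of 0.31 against -0.0045. With the exon junction share corrected, 31 rose and 4 fell in that pool (background 27.7% and 25.7%), and the median was 0.49. Rises in both pools were found for 24 members (background 11.9%), and for 29 with the correction (background 13%). Each pool has its own untreated libraries. Leaving out 1 library at a time, 31 to 36 members rose in DU145-pc3.1 and 20 to 26 in DU145-Esrrb cells, and 7 fell each time in the latter. NPM3, GAR1, GNL3 and BYSL in DU145-pc3.1 cells and DKC1, RRP1, UTP14A, PPAN and RRP12 in DU145-Esrrb cells did not pass without at least 1 of the libraries, with adjusted p values up to 0.23 and 0.522.

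The study's stricter threshold also asks for a log2 fold change of 1 or more in size. By that rule, with the test used here, UTP20 alone among the members rose in DU145-pc3.1 cells (background 1.02%). The paper, with edgeR's exact test, reports no gene changed by DY131 in cells without Esrrb. At an adjusted p under 0.05 alone, the exact test run here gave 34 members that rose and 0 that fell in DU145-pc3.1 cells. These counts were the same as with the main test. Why the paper's outcome differs was not tested. By the stricter rule, RRS1 rose in DU145-Esrrb cells (background 2.98%), and NPM1 and NPM3 fell (background 9.04%). Most of the rises were thus of less than 2-fold, as the plot of fold changes by role shows. The paper's list for DY131 in DU145-Esrrb cells also holds RRS1 as higher and NPM1 and NPM3 as lower. Its gene ontology terms for the lower genes include ribosome biogenesis and processing of ribosomal RNA.

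**Figure D1:**
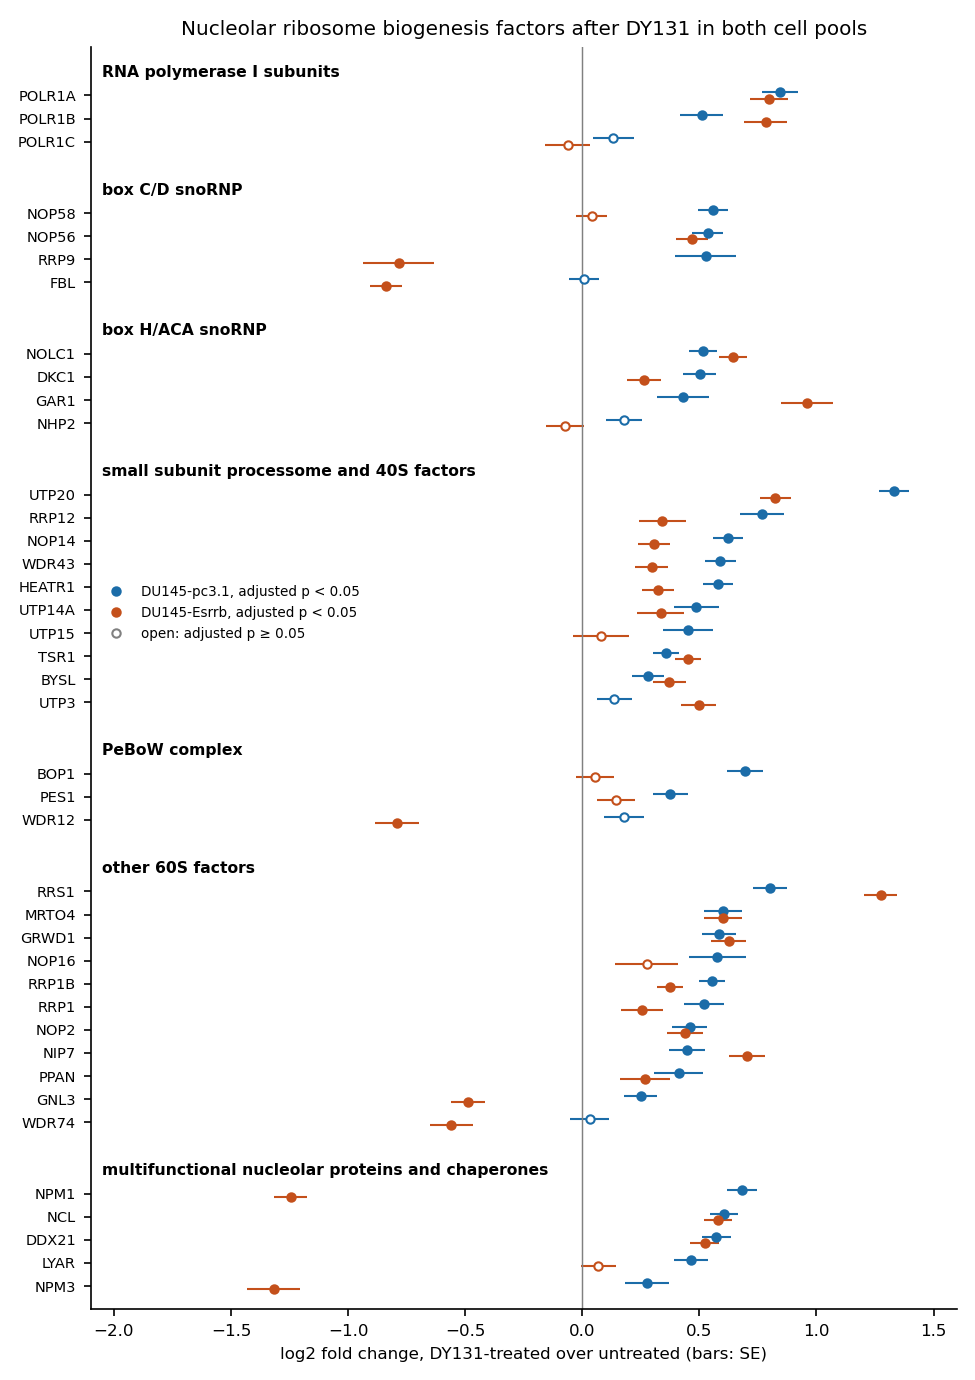
Log2 fold change of each of the 40 members after DY131 (horizontal axis, bars are SE) in DU145-pc3.1 cells (blue) and DU145-Esrrb cells (orange), grouped by role, with open circles for an adjusted p of 0.05 or more. All blue points lie right of 0 (0.0072 to 1.33), while the orange points spread from -1.32 to 1.27.

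Added up over the 40 members, the level was 4533 and 4849 cpm (reads per 1000000 of the effective library size) in untreated DU145-pc3.1 cells and 6701 and 6904 cpm after DY131. In DU145-Esrrb cells it was 4357 and 4624 cpm untreated and 5641 and 5533 cpm after DY131. Treated libraries were above untreated ones in both pools without overlap. Per kilobase of transcript, which allows levels of different genes to be compared, NPM1 (329 cpm per kilobase), NCL (209) and FBL (135) were the highest members in untreated DU145-pc3.1 cells, and POLR1A (2.74) and WDR12 (4.99) the lowest. In DY131-treated DU145-Esrrb cells, NPM1 was at 108 cpm per kilobase, below NCL at 293 and NOLC1 at 158. These lengths are of the matched GENCODE transcript, and a shorter isoform in these cells would raise the value.

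Promoter windows of the members were searched for 3 short motifs. Whether a motif goes with the response to DY131 was not tested. RefSeq windows from 250 bases before to 50 bases after the start (GRCh38.p14) were at hand for 34 of the 40 members. The E-box CACGTG, the core of the sites that MYC binds with MAX, was in the window of 14 of 34 members (41.2%), against 12.4% of tested genes with a window and 7.26% of all 35116 windows. The letters CCGGAAGT, a core of ETS factor sites, were in 7 of 34 (20.6%, against 9.68% and 4.14%). The letters AAGGTCA, the letters that estrogen related receptors bind, were in 1 of 34, that of NOP16 (2.94%, against 3.69% and 3.92%). The E-box reads the same on both strands, and the other motifs were searched on both strands. A match is a description of the letters and not a measured site. The windows printed below are hand-picked examples. Those of UTP20, GAR1 and DDX21, members that rose in both pools, each hold an E-box, given in capitals. GAR1 and DDX21 have 2 windows each, and the one with the most E-box matches is printed. An E-box in their printed window is thus partly a result of that choice. The window of NPM3, which rose in DU145-pc3.1 and fell in DU145-Esrrb cells, holds none of the 3 motifs. The windows of FBL, GNL3 and RRP9, which fell in DU145-Esrrb cells as tested, hold the E-box too. The windows shown lie on GRCh38 at chr12:101279855-101280154 on the plus strand, chr4:109815512-109815811 on the plus strand, chr10:68956397-68956696 on the plus strand and chr10:101783397-101783696 on the minus strand.
UTP20: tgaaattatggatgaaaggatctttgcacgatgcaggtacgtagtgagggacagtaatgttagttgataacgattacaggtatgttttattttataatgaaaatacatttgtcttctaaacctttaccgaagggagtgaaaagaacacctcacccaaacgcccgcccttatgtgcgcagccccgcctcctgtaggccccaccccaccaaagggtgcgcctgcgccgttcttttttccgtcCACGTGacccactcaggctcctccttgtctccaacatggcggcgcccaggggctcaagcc
GAR1: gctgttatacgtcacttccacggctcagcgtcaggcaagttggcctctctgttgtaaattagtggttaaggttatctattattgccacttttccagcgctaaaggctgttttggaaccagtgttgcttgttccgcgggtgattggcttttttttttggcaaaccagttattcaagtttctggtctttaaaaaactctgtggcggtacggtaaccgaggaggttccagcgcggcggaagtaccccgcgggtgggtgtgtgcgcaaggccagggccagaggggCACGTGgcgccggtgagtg
DDX21: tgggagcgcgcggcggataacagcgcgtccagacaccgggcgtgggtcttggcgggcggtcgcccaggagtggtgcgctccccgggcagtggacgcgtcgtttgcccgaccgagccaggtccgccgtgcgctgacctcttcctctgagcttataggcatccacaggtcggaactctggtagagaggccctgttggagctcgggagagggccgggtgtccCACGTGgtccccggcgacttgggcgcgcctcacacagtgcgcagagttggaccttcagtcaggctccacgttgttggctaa
NPM3: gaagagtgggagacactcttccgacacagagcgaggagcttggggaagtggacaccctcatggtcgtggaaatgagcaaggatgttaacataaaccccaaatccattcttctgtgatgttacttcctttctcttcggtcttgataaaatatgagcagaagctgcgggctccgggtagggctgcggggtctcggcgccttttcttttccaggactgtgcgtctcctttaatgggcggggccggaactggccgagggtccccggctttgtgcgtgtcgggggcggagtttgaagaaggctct

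Of the 3 RNA polymerase I subunits among the members, 2 rose in both pools (background 11.9%). POLR1A is the largest subunit of the enzyme and forms part of its active site. POLR1A was at 34.5 and 35.2 cpm in untreated and 65.0 and 60.2 cpm in DY131-treated DU145-pc3.1 libraries, and at 31.6 and 30.2 cpm in untreated and 53.5 and 53.9 cpm in DY131-treated DU145-Esrrb libraries. DY131-treated libraries lay well above untreated ones in both pools. POLR1A gave log2 fold changes of 0.84 (SE 0.077, adjusted p = 1.25e-06) in DU145-pc3.1 and 0.80 (SE 0.081, adjusted p = 8.13e-07) in DU145-Esrrb cells. POLR1B is the other large catalytic subunit. The level of POLR1B in DU145-pc3.1 cells was 45.3 and 44.6 cpm untreated and 59.4 and 68.7 cpm after DY131, and in DU145-Esrrb cells 42.3 and 49.8 cpm untreated and 81.7 and 76.5 cpm after DY131. Here the treated DU145-Esrrb libraries were the highest. For POLR1B the log2 fold changes were 0.51 in DU145-pc3.1 cells (SE 0.092, adjusted p = 0.000474) and 0.78 in DU145-Esrrb cells (SE 0.091, adjusted p = 3.05e-06). POLR1C, a subunit shared with RNA polymerase III, did not pass in either pool, with log2 fold changes of 0.13 and -0.062. After correction for exon junctions the value of POLR1C in DU145-Esrrb cells was 0.28 (adjusted p = 0.0223), beside 0.75 for POLR1A and 0.82 for POLR1B.

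Box C/D snoRNP proteins gave different counts in the 2 pools. Of the 4 members, 3 rose and 0 fell in DU145-pc3.1 cells (background 18.9% and 18.5%). In DU145-Esrrb cells 1 rose and 2 fell (background 29.2% and 29.5%), or 2 and 1 with the correction (background 27.7% and 25.7%). Counts of so few genes near the shares in DU145-Esrrb cells are not a result about the group. NOP56 and NOP58 form the scaffold of these particles. For NOP56, untreated and DY131-treated DU145-pc3.1 libraries gave 139 and 149.5 and then 221 and 197 cpm, and those of DU145-Esrrb cells 129 and 137 and then 181 and 187 cpm. NOP56 rose in both pools without overlap. NOP56 had a log2 fold change of 0.53 (SE 0.067, adjusted p = 1.85e-05) without and of 0.47 (SE 0.068, adjusted p = 2.69e-05) with the Esrrb vector. NOP58 stood, in libraries of DU145-pc3.1 cells, at 86.2 and 90.6 cpm untreated and 127 and 134 cpm treated, and in those of DU145-Esrrb cells at 79.2 and 79.4 cpm and 79.5 and 83.3 cpm. As tested, the rise of NOP58 passed in DU145-pc3.1 cells. The NOP58 fold changes on the log2 scale were 0.56 in DU145-pc3.1 cells (SE 0.063, adjusted p = 7.99e-06) and 0.039 in DU145-Esrrb cells (SE 0.067, adjusted p = 0.634). With the correction, NOP58 rose in DU145-Esrrb cells as well (0.51, adjusted p = 1.55e-05), and NOP56 had 0.63 there. FBL, fibrillarin, is the enzyme that methylates ribosomal RNA. FBL was at 148 and 165 cpm in untreated and 154 and 162 cpm in DY131-treated DU145-pc3.1 libraries, and at 155 and 159 cpm in untreated and 85.4 and 90.7 cpm in DY131-treated DU145-Esrrb libraries. Only the treated DU145-Esrrb libraries of FBL lay apart from the other 6. FBL gave log2 fold changes of 0.0072 (SE 0.065, adjusted p = 0.943) in DU145-pc3.1 and -0.84 (SE 0.069, adjusted p = 9.05e-08) in DU145-Esrrb cells. The fall of FBL was -0.34 with the correction (adjusted p = 0.000649). RRP9 belongs to the U3 particle, which guides the early cleavages of the precursor, and had the fewest reads of the members (61 to 198). The level of RRP9 in DU145-pc3.1 cells was 12.5 and 11.8 cpm untreated and 18.5 and 16.5 cpm after DY131, and in DU145-Esrrb cells 13.1 and 13.1 cpm untreated and 8.34 and 6.90 cpm after DY131. RRP9 was highest after DY131 in 1 pool and lowest after DY131 in the other. For RRP9 the log2 fold changes were 0.53 in DU145-pc3.1 cells (SE 0.13, adjusted p = 0.0048) and -0.78 in DU145-Esrrb cells (SE 0.15, adjusted p = 0.000415). With the correction its log2 fold change in DU145-Esrrb cells was -0.038 (adjusted p = 0.858).

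Among the box H/ACA snoRNP proteins, 3 of 4 rose in each pool (background 18.9% in DU145-pc3.1 and 29.2% in DU145-Esrrb cells). DKC1, dyskerin, is the pseudouridine synthase of these particles and of telomerase. For DKC1, untreated and DY131-treated DU145-pc3.1 libraries gave 134 and 159 and then 204 and 211 cpm, and those of DU145-Esrrb cells 135 and 142 and then 168 and 164 cpm. Treated libraries of DKC1 were higher in both pools. DKC1 had a log2 fold change of 0.50 (SE 0.071, adjusted p = 6.28e-05) without and of 0.26 (SE 0.073, adjusted p = 0.00597) with the Esrrb vector. GAR1 is a core protein of the same particle. GAR1 stood, in libraries of DU145-pc3.1 cells, at 20.1 and 25.3 cpm untreated and 30 and 31.3 cpm treated, and in those of DU145-Esrrb cells at 19.5 and 22.0 cpm and 40.8 and 39.9 cpm. The treated DU145-Esrrb libraries of GAR1 were above all others. The GAR1 fold changes on the log2 scale were 0.43 in DU145-pc3.1 cells (SE 0.11, adjusted p = 0.00639) and 0.96 in DU145-Esrrb cells (SE 0.11, adjusted p = 2.76e-06). NOLC1 is a chaperone that carries snoRNPs in the nucleolus. NOLC1 was at 388 and 425 cpm in untreated and 570.3 and 592 cpm in DY131-treated DU145-pc3.1 libraries, and at 387 and 407 cpm in untreated and 619.8 and 622 cpm in DY131-treated DU145-Esrrb libraries. All 4 treated libraries of NOLC1 were above all 4 untreated ones. NOLC1 gave log2 fold changes of 0.51 (SE 0.060, adjusted p = 1.01e-05) in DU145-pc3.1 and 0.64 (SE 0.060, adjusted p = 3.05e-07) in DU145-Esrrb cells. NHP2, the remaining core protein, did not pass in either pool (0.18 and -0.072). Corrected log2 fold changes in DU145-Esrrb cells were 0.53 for DKC1, 1.17 for GAR1, 0.65 for NOLC1 and -0.016 for NHP2, and the first 3 of these passed. Of the windows of NHP2, 63.5% lie in transcripts of other genes when strand is ignored, mainly the antisense gene RMND5B, which had 87 and 100 reads in treated DU145-Esrrb libraries and 177 to 266 in the others. The value of NHP2 is therefore uncertain.

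Of the small subunit processome and 40S factors, 9 of 10 rose and 0 fell in each pool. The background was 18.9% and 18.5% in DU145-pc3.1 cells and 29.2% and 29.5% in DU145-Esrrb cells. UTP20, a very large scaffold protein of the processome, had the largest rise of any member in DU145-pc3.1 cells. On GRCh38 it spans 101280109 to 101386616 of chromosome 12, and its transcript has 62 exons. The level of UTP20 in DU145-pc3.1 cells was 51.7 and 51.2 cpm untreated and 132 and 127 cpm after DY131, and in DU145-Esrrb cells 55.9 and 56.9 cpm untreated and 100.1 and 99.6 cpm after DY131. The 4 untreated libraries lay between 51.2 and 56.9 cpm and all 4 treated ones were higher. For UTP20 the log2 fold changes were 1.33 in DU145-pc3.1 cells (SE 0.064, adjusted p = 2.52e-09) and 0.82 in DU145-Esrrb cells (SE 0.066, adjusted p = 6.38e-08). In linear terms this was 2.51-fold and 1.77-fold. With the correction, the log2 fold change of UTP20 in DU145-Esrrb cells was 1.26. RRP12 is a pre-ribosome factor with a part in nuclear export. For RRP12, untreated and DY131-treated DU145-pc3.1 libraries gave 38.6 and 34.1 and then 66.4 and 57.1 cpm, and those of DU145-Esrrb cells 32.5 and 34.3 and then 40.3 and 44.2 cpm. Treated libraries of RRP12 stood higher in each pool. RRP12 had a log2 fold change of 0.77 (SE 0.093, adjusted p = 1.5e-05) without and of 0.34 (SE 0.10, adjusted p = 0.00843) with the Esrrb vector. NOP14 is a core factor of the processome. NOP14 stood, in libraries of DU145-pc3.1 cells, at 72.2 and 73.2 cpm untreated and 114 and 109.8 cpm treated, and in those of DU145-Esrrb cells at 68.7 and 70.9 cpm and 88.9 and 83.8 cpm. Both pools showed the rise without overlap. The NOP14 fold changes on the log2 scale were 0.62 in DU145-pc3.1 cells (SE 0.064, adjusted p = 3.8e-06) and 0.31 in DU145-Esrrb cells (SE 0.067, adjusted p = 0.00104). HEATR1 and WDR43 are subunits of the module that joins the precursor as it is transcribed. HEATR1 was at 90.5 and 92.3 cpm in untreated and 136 and 138 cpm in DY131-treated DU145-pc3.1 libraries, and at 94.6 and 90.8 cpm in untreated and 123 and 109.6 cpm in DY131-treated DU145-Esrrb libraries. HEATR1 rose in both pools without overlap. HEATR1 gave log2 fold changes of 0.58 (SE 0.066, adjusted p = 8.44e-06) in DU145-pc3.1 and 0.32 (SE 0.067, adjusted p = 0.000715) in DU145-Esrrb cells. The level of WDR43 in DU145-pc3.1 cells was 133 and 136 cpm untreated and 192 and 214 cpm after DY131, and in DU145-Esrrb cells 125 and 139.5 cpm untreated and 162 and 163 cpm after DY131. WDR43, too, was higher in all 4 treated libraries. For WDR43 the log2 fold changes were 0.59 in DU145-pc3.1 cells (SE 0.068, adjusted p = 9.31e-06) and 0.30 in DU145-Esrrb cells (SE 0.069, adjusted p = 0.00177). The correction raised the values in DU145-Esrrb cells to 0.86 for RRP12, 0.68 for NOP14, 0.55 for HEATR1 and 0.47 for WDR43. Ignoring strand, HEATR1 shares 23.8% and NOP14 10.7% of windows with other transcripts.

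TSR1, UTP3 and BYSL were the members of this group with the larger fold change in DU145-Esrrb cells as tested, a difference that passed for UTP3 alone. TSR1 is a factor of late pre-40S particles. For TSR1, untreated and DY131-treated DU145-pc3.1 libraries gave 175 and 182 and then 227 and 230.1 cpm, and those of DU145-Esrrb cells 164 and 167 and then 227 and 226 cpm. Treated libraries of TSR1 lay between 226 and 230.1 cpm in both pools. TSR1 had a log2 fold change of 0.36 (SE 0.054, adjusted p = 0.000108) without and of 0.45 (SE 0.055, adjusted p = 4.64e-06) with the Esrrb vector. TSR1 shares 21.1% of its windows with other transcripts when strand is ignored. UTP3 is a processome factor whose transcript has 1 exon and so no junction. UTP3 stood, in libraries of DU145-pc3.1 cells, at 56.3 and 57.5 cpm untreated and 59.4 and 65.7 cpm treated, and in those of DU145-Esrrb cells at 59.2 and 56.4 cpm and 79.4 and 83.8 cpm. Only in DU145-Esrrb cells did the rise of UTP3 pass. The UTP3 fold changes on the log2 scale were 0.14 in DU145-pc3.1 cells (SE 0.075, adjusted p = 0.17) and 0.50 in DU145-Esrrb cells (SE 0.074, adjusted p = 3.62e-05). With the correction the values of UTP3 were 0.18 and 0.19 (adjusted p = 0.069 and 0.0358). UTP14A (0.49 and 0.33) and BYSL, bystin (0.28 and 0.37), rose in both pools, and UTP15 rose in DU145-pc3.1 cells (0.45) with a value of 0.079 in DU145-Esrrb cells. Their corrected values there were 0.60, 0.37 and 0.10, and that of TSR1 was 0.42, of which that of UTP15 did not pass (adjusted p = 0.49). UTP14A shares 12.4% of its windows with ALG11 and UTP14C.

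The PeBoW complex, which processes the precursor of the large subunit, holds 3 members. In DU145-pc3.1 cells 2 of them rose (background 18.9%), and in DU145-Esrrb cells 0 rose and 1 fell (background 29.2% and 29.5%). The counts of so few genes in DU145-Esrrb cells are not a result about the complex. BOP1 is the scaffold of the complex. BOP1 was at 50 and 51.1 cpm in untreated and 85.7 and 77.7 cpm in DY131-treated DU145-pc3.1 libraries, and at 48.9 and 53.0 cpm in untreated and 54.8 and 51.1 cpm in DY131-treated DU145-Esrrb libraries. A rise of BOP1 was seen in DU145-pc3.1 cells, and groups overlapped in DU145-Esrrb cells. BOP1 gave log2 fold changes of 0.69 (SE 0.077, adjusted p = 7.22e-06) in DU145-pc3.1 and 0.055 (SE 0.082, adjusted p = 0.586) in DU145-Esrrb cells. WDR12 joins BOP1 and PES1 in the complex. The level of WDR12 in DU145-pc3.1 cells was 37.5 and 43.3 cpm untreated and 46.4 and 45.03 cpm after DY131, and in DU145-Esrrb cells 46.7 and 45.3 cpm untreated and 25.7 and 27.5 cpm after DY131. The treated DU145-Esrrb libraries of WDR12 were the lowest of all 8. For WDR12 the log2 fold changes were 0.18 in DU145-pc3.1 cells (SE 0.086, adjusted p = 0.118) and -0.79 in DU145-Esrrb cells (SE 0.094, adjusted p = 3.68e-06). The transcript used for WDR12 is 8100 bases long with a junction share of 7.27%, and the correction did not bring the value nearer to 0 (-0.96, adjusted p = 6.81e-07). PES1 rose in DU145-pc3.1 cells (0.38) and had a value of 0.14 in DU145-Esrrb cells, which was 0.64 with the correction (adjusted p = 6.44e-06). BOP1, with 0.47, likewise passed in DU145-Esrrb cells with the correction (adjusted p = 0.000143).

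Other 60S factors rose in 10 of 11 cases in DU145-pc3.1 cells (background 18.9%). In DU145-Esrrb cells 8 rose and 2 fell (background 29.2% and 29.5%), or 9 and 0 with the correction (background 27.7% and 25.7%). RRS1, an early assembly factor of the large subunit, had the largest rise of any member in DU145-Esrrb cells. For RRS1, untreated and DY131-treated DU145-pc3.1 libraries gave 71.2 and 74.4 and then 118 and 135 cpm, and those of DU145-Esrrb cells 70.5 and 74.9 and then 176 and 175 cpm. The 4 untreated libraries of RRS1 lay between 70.5 and 74.9 cpm, and the treated DU145-Esrrb libraries were the highest. RRS1 had a log2 fold change of 0.80 (SE 0.072, adjusted p = 1.1e-06) without and of 1.27 (SE 0.072, adjusted p = 1.65e-09) with the Esrrb vector. RRS1 has a single exon, and its log2 fold change there was 0.97 with the correction. NIP7 acts in processing of the precursor. NIP7 stood, in libraries of DU145-pc3.1 cells, at 77.0 and 84.6 cpm untreated and 103 and 117 cpm treated, and in those of DU145-Esrrb cells at 85.6 and 92.4 cpm and 149.5 and 141 cpm. NIP7 was highest in the treated DU145-Esrrb libraries. The NIP7 fold changes on the log2 scale were 0.45 in DU145-pc3.1 cells (SE 0.078, adjusted p = 0.000357) and 0.70 in DU145-Esrrb cells (SE 0.077, adjusted p = 1.52e-06). GRWD1 is a chaperone of a large subunit ribosomal protein. GRWD1 was at 48.7 and 49.5 cpm in untreated and 71.3 and 75.8 cpm in DY131-treated DU145-pc3.1 libraries, and at 44.6 and 48.1 cpm in untreated and 73.1 and 70.0 cpm in DY131-treated DU145-Esrrb libraries. The treated libraries of GRWD1 overlapped between the pools. GRWD1 gave log2 fold changes of 0.58 (SE 0.073, adjusted p = 2.04e-05) in DU145-pc3.1 and 0.63 (SE 0.075, adjusted p = 4.13e-06) in DU145-Esrrb cells. MRTO4 prepares the site of the ribosomal stalk. The level of MRTO4 in DU145-pc3.1 cells was 57.7 and 59.8 cpm untreated and 83.6 and 94.6 cpm after DY131, and in DU145-Esrrb cells 52.7 and 57.1 cpm untreated and 78.7 and 87.5 cpm after DY131. MRTO4 rose in both pools without overlap. For MRTO4 the log2 fold changes were 0.60 in DU145-pc3.1 cells (SE 0.080, adjusted p = 3.68e-05) and 0.60 in DU145-Esrrb cells (SE 0.083, adjusted p = 1.61e-05). With the correction, NIP7 (0.55), GRWD1 (0.42) and MRTO4 (0.60) rose in DU145-Esrrb cells too.

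RRP1B and its paralog RRP1 are nucleolar factors of the large subunit. For RRP1B, untreated and DY131-treated DU145-pc3.1 libraries gave 187 and 192 and then 270.0 and 286 cpm, and those of DU145-Esrrb cells 222 and 229 and then 295 and 290.3 cpm. RRP1B was already somewhat higher in untreated DU145-Esrrb cells. RRP1B had a log2 fold change of 0.55 (SE 0.056, adjusted p = 3.3e-06) without and of 0.37 (SE 0.056, adjusted p = 3.89e-05) with the Esrrb vector. NOP2 is a methyltransferase of ribosomal RNA. NOP2 stood, in libraries of DU145-pc3.1 cells, at 70.3 and 78.9 cpm untreated and 106 and 98.9 cpm treated, and in those of DU145-Esrrb cells at 71.5 and 73.4 cpm and 103 and 93.3 cpm. NOP2 rose in both pools. The NOP2 fold changes on the log2 scale were 0.46 in DU145-pc3.1 cells (SE 0.075, adjusted p = 0.000225) and 0.44 in DU145-Esrrb cells (SE 0.077, adjusted p = 0.000163). Of the windows of NOP2, 93.9% are shared with the annotated gene AC006064.6, so its value is uncertain. GNL3, nucleostemin, is a GTPase known from stem and tumor cells. GNL3 was at 105 and 119.8 cpm in untreated and 131.5 and 136 cpm in DY131-treated DU145-pc3.1 libraries, and at 111 and 117 cpm in untreated and 79.5 and 82.7 cpm in DY131-treated DU145-Esrrb libraries. Treatment went with higher GNL3 in DU145-pc3.1 and lower GNL3 in DU145-Esrrb cells. GNL3 gave log2 fold changes of 0.25 (SE 0.069, adjusted p = 0.00998) in DU145-pc3.1 and -0.49 (SE 0.073, adjusted p = 3.78e-05) in DU145-Esrrb cells. The fall of GNL3 did not pass with the correction (-0.016, adjusted p = 0.869). WDR74 is released from pre-60S particles in the nucleolus. The level of WDR74 in DU145-pc3.1 cells was 41.2 and 46.0 cpm untreated and 45.2 and 43.9 cpm after DY131, and in DU145-Esrrb cells 40.6 and 44.1 cpm untreated and 29.3 and 28.1 cpm after DY131. Groups of WDR74 overlapped in DU145-pc3.1 cells and did not in DU145-Esrrb cells. For WDR74 the log2 fold changes were 0.031 in DU145-pc3.1 cells (SE 0.084, adjusted p = 0.8) and -0.56 in DU145-Esrrb cells (SE 0.092, adjusted p = 8.88e-05). With the correction the value of WDR74 in DU145-Esrrb cells turned positive (0.091, adjusted p = 0.421), and ignoring strand 20.5% of its windows are shared. RRP1 and PPAN rose in both pools (0.52 and 0.25, 0.41 and 0.27), and NOP16 rose in DU145-pc3.1 cells (0.58) with 0.27 in DU145-Esrrb cells. The correction gave 0.35 for NOP16 (adjusted p = 0.0382), 0.33 for RRP1, 0.71 for PPAN, 0.72 for NOP2 and 0.35 for RRP1B there, and all 5 passed. PPAN shares 87.0% of its windows with the readthrough gene PPAN-P2RY11, which the table lists with 572 to 888 reads beside 358 to 668 for PPAN, and NOP16 shares 28.2% when strand is ignored.

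Multifunctional nucleolar proteins include NPM1 and NPM3, the single members with the widest contrast between the pools. All 5 rose in DU145-pc3.1 cells (background 18.9%). In DU145-Esrrb cells 2 rose and 2 fell (background 29.2% and 29.5%), or 3 and 2 with the correction (background 27.7% and 25.7%). NCL, nucleolin, is an abundant protein that binds the precursor. For NCL, untreated and DY131-treated DU145-pc3.1 libraries gave 809 and 874 and then 1267 and 1294 cpm, and those of DU145-Esrrb cells 761 and 820.2 and then 1205 and 1159 cpm. Treated libraries of NCL were above untreated ones in both pools. NCL had a log2 fold change of 0.61 (SE 0.060, adjusted p = 2.75e-06) without and of 0.58 (SE 0.061, adjusted p = 1.04e-06) with the Esrrb vector. DDX21 is an RNA helicase that couples polymerase I activity to processing. DDX21 stood, in libraries of DU145-pc3.1 cells, at 349.6 and 370.1 cpm untreated and 528 and 543 cpm treated, and in those of DU145-Esrrb cells at 339.6 and 374 cpm and 527 and 497 cpm. DDX21, too, was higher in all 4 treated libraries. The DDX21 fold changes on the log2 scale were 0.57 in DU145-pc3.1 cells (SE 0.062, adjusted p = 5.93e-06) and 0.52 in DU145-Esrrb cells (SE 0.062, adjusted p = 3.84e-06). NPM1, nucleophosmin, is a histone and ribosome chaperone of the granular nucleolus. On GRCh38 it spans 171387116 to 171411137 of chromosome 5. NPM1 was at 507 and 544 cpm in untreated and 799 and 886 cpm in DY131-treated DU145-pc3.1 libraries, and at 396 and 425 cpm in untreated and 168 and 178 cpm in DY131-treated DU145-Esrrb libraries. No other member had treated libraries so far apart between the pools. NPM1 gave log2 fold changes of 0.68 (SE 0.065, adjusted p = 1.78e-06) in DU145-pc3.1 and -1.24 (SE 0.070, adjusted p = 1.54e-09) in DU145-Esrrb cells. That was a 1.604-fold level in DU145-pc3.1 cells and a 0.422-fold level in DU145-Esrrb cells. Of the windows of NPM1, 37.2% are shared with other transcripts, pseudogenes of NPM1 among them, so part of its count is uncertain. NPM3, a smaller relative of NPM1, lies on chromosome 10 from 101781325 to 101783413 and shares no windows. The level of NPM3 in DU145-pc3.1 cells was 35.2 and 40.2 cpm untreated and 43.7 and 47.8 cpm after DY131, and in DU145-Esrrb cells 38.9 and 39.8 cpm untreated and 17.2 and 14.5 cpm after DY131. Like NPM1, NPM3 was highest in treated DU145-pc3.1 and lowest in treated DU145-Esrrb libraries. For NPM3 the log2 fold changes were 0.28 in DU145-pc3.1 cells (SE 0.093, adjusted p = 0.0285) and -1.32 in DU145-Esrrb cells (SE 0.11, adjusted p = 1.24e-07). With the correction, the falls were -0.94 for NPM1 (adjusted p = 4.79e-08) and -0.98 for NPM3 (adjusted p = 3.5e-06). LYAR, a zinc finger protein of the nucleolus, rose in DU145-pc3.1 cells (0.46) and had a value of 0.068 in DU145-Esrrb cells. With the correction LYAR rose there too (0.42, adjusted p = 0.000238), and NCL and DDX21 had 0.60 and 0.51.

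**Figure D2:**
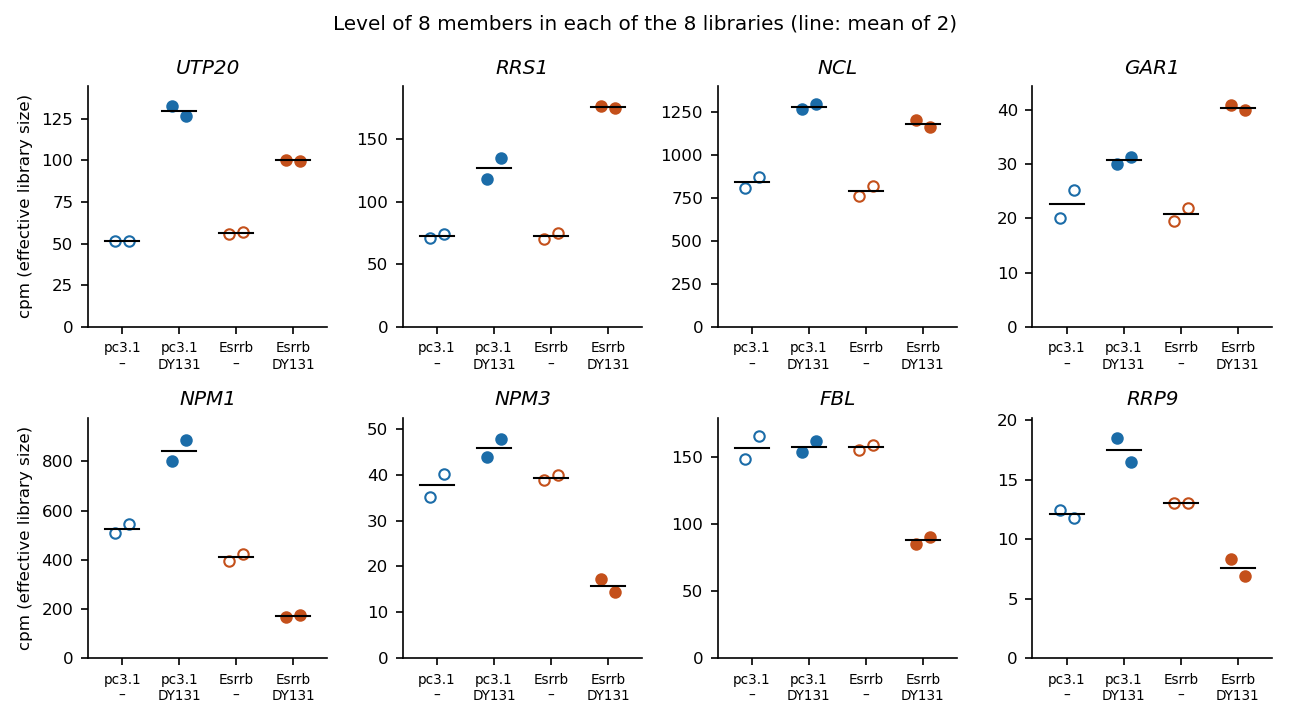
Level of 8 members in cpm of the effective library size (vertical axes from 0) in each of the 8 libraries, untreated as open and DY131-treated as filled circles, with lines at the mean of the 2 libraries. UTP20, RRS1, NCL and GAR1 were higher after DY131 in both pools, while NPM1, NPM3, FBL and RRP9 were lowest in DY131-treated DU145-Esrrb cells.

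The interaction of DY131 with Esrrb asks whether the response is of another size in the pool with the receptor. Of the 40 members, 3 responded higher in DU145-Esrrb than in DU145-pc3.1 cells and 15 lower, against 16.1% and 17.6% of all tested genes, with a median difference of -0.23 on the log2 scale. GAR1 (0.53, SE 0.16, adjusted p = 0.0166), RRS1 (0.47, SE 0.10, adjusted p = 0.00236) and UTP3 (0.36, SE 0.11, adjusted p = 0.0153) were those that responded higher. NPM1 had the largest difference, with -1.93 (SE 0.10, adjusted p = 1.24e-09), followed by NPM3 with -1.59 (SE 0.15, adjusted p = 1.33e-06) and RRP9 with -1.31 (SE 0.20, adjusted p = 0.000173). These 3 also passed the stricter threshold (background 4.74%). WDR12 (-0.97) and FBL (-0.84) came next, and GNL3, BOP1, WDR74, NOP58, UTP20, RRP12, LYAR, NOP14, WDR43 and HEATR1 had differences from -0.74 to -0.26. With 22 members the difference did not pass, which does not show that they responded alike. With the exon junction share corrected, 1 member responded higher and 5 lower (background 10.8% and 11.5%), and the median difference was -0.020. GAR1 (0.75) was the higher one, and NPM1 (-1.62), NPM3 (-1.26), WDR12 (-1.15), RRP9 (-0.58) and FBL (-0.36) the lower ones. RRP9 was near the threshold (adjusted p = 0.0487) and did not pass with the share of the median transcript (adjusted p = 0.0662). Leaving out 1 library at a time, 1 to 5 members responded higher and 10 to 19 lower. GAR1, UTP3, HEATR1, WDR43, NOP14, RRP12 and LYAR each no longer passed without at least 1 of the libraries, with adjusted p values up to 0.211, while NPM1, NPM3, RRP9, WDR12, FBL, GNL3, BOP1, WDR74, NOP58, UTP20 and RRS1 passed each time. The plot of response differences sets the corrected values beside the uncorrected ones.

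**Figure D3:**
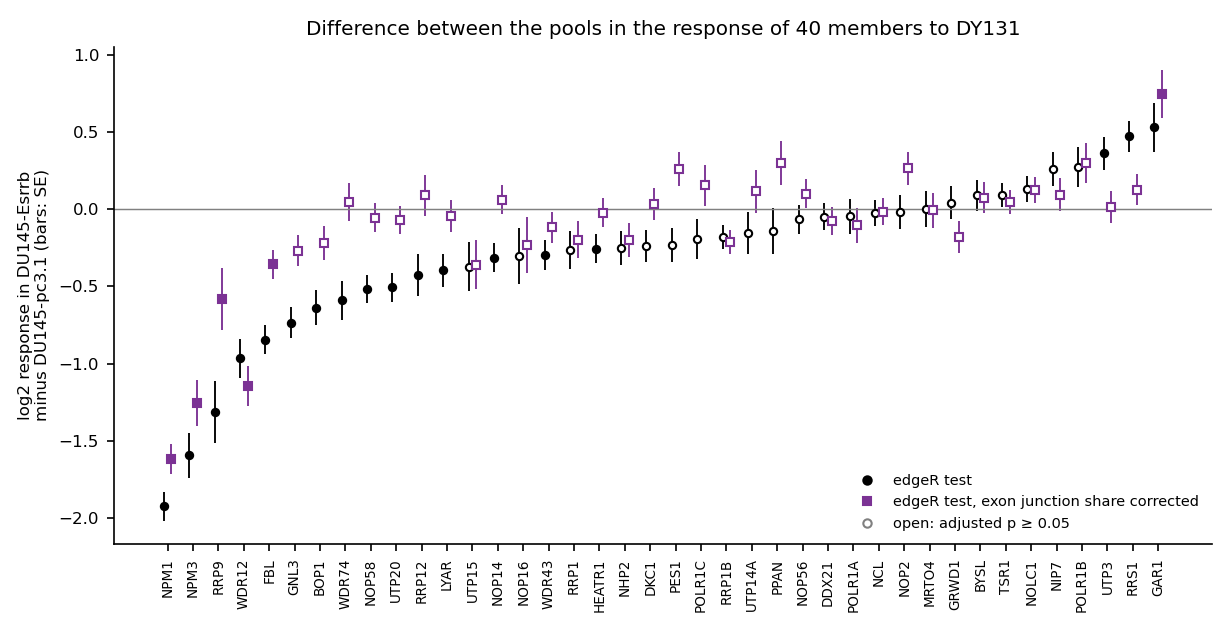
Log2 response to DY131 in DU145-Esrrb cells minus that in DU145-pc3.1 cells (vertical axis, bars are SE) for each of the 40 members, as tested (black circles) and with the exon junction share corrected (purple squares), with open symbols for an adjusted p of 0.05 or more. NPM1 is lowest with -1.93 and -1.62, and the 10 members from GNL3 to HEATR1 that passed only as tested lie between -0.27 and 0.089 with the correction.

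The values in DU145-Esrrb cells moved with exon structure within the members too. Over the 40 members, Spearman's rho of the log2 fold change with the junction share was -0.573 in DU145-Esrrb cells and -0.052 after the correction, and -0.087 in DU145-pc3.1 cells. The 18 members with a share under 20%, a limit chosen after the values were seen, had a median log2 fold change of 0.51 in DU145-Esrrb cells and 0.52 in DU145-pc3.1 cells. For the 22 members with a higher share, the medians were 0.20 and 0.49. All tested genes had medians of 0.13 under and -0.30 from that share in DU145-Esrrb cells. NPM1 and NPM3, with shares of 28.5% and 29.6%, lay well below other genes of their share, and GAR1 (25.02%) and UTP20 (33.3%) well above, as the plot against junction share shows.

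**Figure D4:**
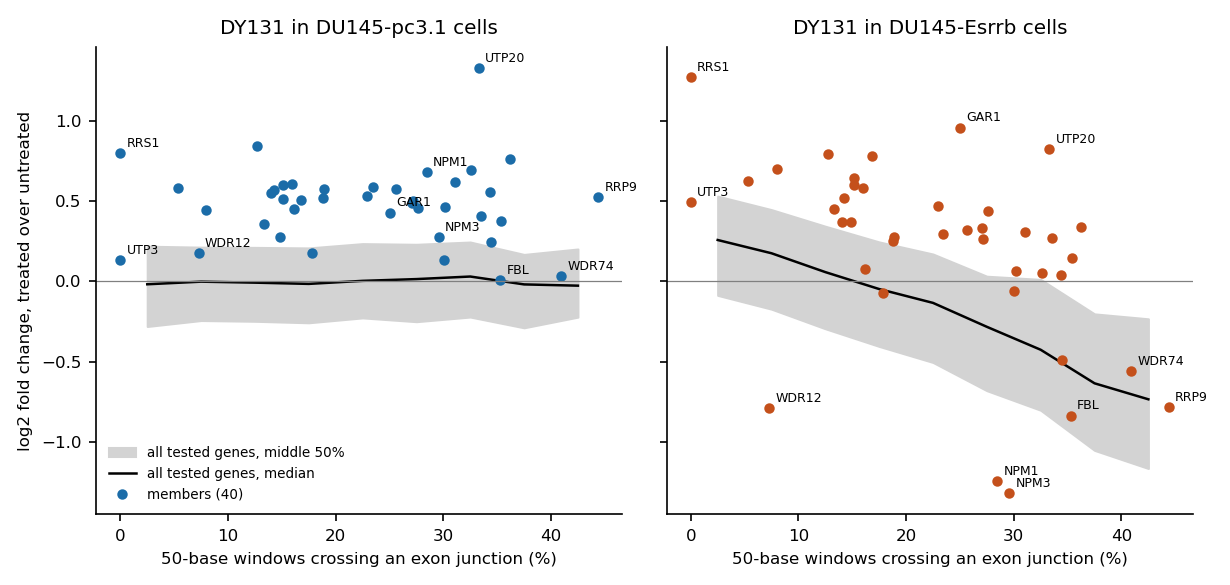
Log2 fold change after DY131 (vertical axis) against the share of 50-base windows that cross an exon junction (horizontal axis, %) for the 40 members (points), over the median (line) and middle 50% (grey) of all tested genes in bins of 5 percentage points. The line stays near 0 in DU145-pc3.1 cells and falls from 0.26 to -0.73 in DU145-Esrrb cells, where NPM1, NPM3 and WDR12 lie below the grey band.

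Without DY131, the Esrrb vector went with little change of these genes. RRP1B was higher in DU145-Esrrb than in DU145-pc3.1 cells (0.25, SE 0.057, adjusted p = 0.0178) and NPM1 lower (-0.36, SE 0.066, adjusted p = 0.00543), 1 member in each direction, against 1.68% and 2.5% of all tested genes. The median over the 40 members was -0.032. Without the first or the second library of DU145-pc3.1 or of DU145-Esrrb cells, RRP1B no longer passed, and NPM1 no longer passed without the first DU145-Esrrb or the second DU145-pc3.1 library, with adjusted p values from 0.0974 to 0.186.

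Other ribosome biogenesis genes were followed in a list of 106, of which 105 were tested. In DU145-pc3.1 cells 66 rose and 1 fell (background 18.9% and 18.5%), with a median of 0.30. URB1 (0.94), MDN1 (0.78) and EBNA1BP2 (0.72), all factors of the large subunit, and TCOF1 (0.84), treacle, which serves polymerase I transcription, had the largest rises, and RSL24D1 (-0.52) fell. In DU145-Esrrb cells 35 rose and 32 fell, shares near the background of 29.2% and 29.5%, with a median of 0.054. With the correction 48 rose and 11 fell (background 27.7% and 25.7%), with a median of 0.15. RUVBL2, an ATPase of snoRNP assembly (-1.72), and EXOSC9 (-1.39) and EXOSC8 (-1.14) of the RNA exosome had the largest falls there, and URB2 (0.85) the largest rise. With the correction these values were -1.23 for RUVBL2, -0.78 for EXOSC9, -0.48 for EXOSC8 and 0.70 for URB2.

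Cytosolic ribosomal protein genes, the parts that these factors assemble, were mostly lower after DY131. Of 78 tested, 0 rose and 50 fell in DU145-pc3.1 cells (background 18.9% and 18.5%), with a median of -0.23. In DU145-Esrrb cells 4 rose and 68 fell (background 29.2% and 29.5%), with a median of -0.70. With the correction, 6 rose and 55 fell in DU145-Esrrb cells (background 27.7% and 25.7%), with a median of -0.38. Their median junction share was 27.6%, above that of the members. MYC, whose product is known to drive this program, was between 133 and 153 cpm in all 8 libraries, with log2 fold changes of 0.020 in DU145-pc3.1 cells (adjusted p = 0.83) and 0.17 in DU145-Esrrb cells (adjusted p = 0.0275). With the correction the latter was -0.056 (adjusted p = 0.486), and MYCN had 0 reads. In the MYC network list of 12, 11 were tested. Of these, 2 rose and 4 fell in DU145-pc3.1 cells (background 18.9% and 18.5%). In DU145-Esrrb cells 6 rose and 2 fell (background 29.2% and 29.5%). Counts of so few genes near these shares are not a result about the list. With the correction, 4 rose and 5 fell in DU145-Esrrb cells (background 27.7% and 25.7%), so the balance of this short list depends on the correction. MXD4, a partner of MAX that opposes MYC, fell in both pools (-0.93 and -0.86). MXD3 fell in DU145-Esrrb cells (-1.93) and MXD1 rose there (1.37), with values of 0.13 (adjusted p = 0.454) and 0.30 (adjusted p = 0.143) in DU145-pc3.1 cells. The corrected values in DU145-Esrrb cells were -1.06 for MXD4, -2.04 for MXD3 and 1.14 for MXD1.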

How the data were processed

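Messenger RNA of 8 libraries, 2 for each of 4 groups, was sequenced from a stranded kit as 50-base single reads in 1 lane. The authors used the FASTX-Toolkit for trimming and TopHat2 for mapping to hg18, and the deposited values are raw counts per gene from their program MULTICOM-MAP. Its use of strand and of reads with several matches is not given in the sources used here. Columns were assigned to groups by their headings. The DY131-treated DU145-Esrrb columns share 1 heading and so have no replicate number.

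The counts were tested with edgeR 4.0.16 in R 4.3.3. Genes at 1 cpm or more in 2 or more libraries (13856 of 23391) entered 1 model of the 4 groups over all 8 libraries with TMM normalization. Each comparison used the quasi-likelihood F test with Benjamini-Hochberg adjustment over all tested genes, and a member rose or fell at an adjusted p under 0.05. Levels are cpm of the effective library size. The step was tested on simulated data.

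The share of 50-base windows across an exon junction, and of windows found in transcripts of other genes, was computed from GENCODE 29 on GRCh38, since no hg18 annotation was used here. Gene positions come from it. RefSeq identifiers matched 22018 genes, current symbols 721 and older ones 147, and 505 had no match. The correction adds offsets per library from a loess on that share (span 0.5).

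The members and all lists were chosen with earlier results of these data known. Values per library are given for up to 30 members, namely the 2 with the largest change in each role and then, by lowest adjusted p until 30 were reached, those that passed in both pools in the same direction or in the interaction. UTP14A, BYSL, RRP1, PPAN and LYAR met this rule and fell outside the 30. Alternatives were edgeR's exact test, DESeq2 1.42.0, other scaling and filters, only the 4 libraries compared, a replicate block, corrections for exon junctions and for length and GC content, and leaving out each library.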

Additional observations from a re-analysis of the deposited data

Results flagged for a closer look

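The values here are log2 responses to DY131 in DU145-Esrrb cells minus those in DU145-pc3.1 cells. Of the 40 members, 3 (7.5%) responded higher and 15 (37.5%) lower, against 16.1% and 17.6% of all tested genes. By the interaction test, the response thus differed between the pools for these 18 members. Among multifunctional proteins these were NPM1 with -1.93, NPM3 with -1.59 and LYAR with -0.40. In the snoRNP proteins they were RRP9 with -1.31, FBL with -0.84, NOP58 with -0.52 and GAR1 with 0.53. The PeBoW members were WDR12 with -0.97 and BOP1 with -0.64, and the other 60S factors GNL3 with -0.74, WDR74 with -0.59 and RRS1 with 0.47. Small subunit factors were UTP20 with -0.51, RRP12 with -0.43, NOP14 with -0.31, WDR43 with -0.29, HEATR1 with -0.26 and UTP3 with 0.36. NPM1, NPM3, RRP9 and GNL3 rose after DY131 in DU145-pc3.1 cells and fell in DU145-Esrrb cells. After the correction for exon junction share, GAR1, NPM1, NPM3, WDR12, RRP9 and FBL still passed. RRP9 had an adjusted p of 0.0487 that was 0.0662 with the share of the median transcript. That was 1 member higher (2.5%) and 5 lower (12.5%), against 10.8% and 11.5% of all tested genes. The lower calls were thus near the share over all genes, and the higher ones below it.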

How the results depend on the processing

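In DU145-pc3.1 cells the number of members that rose (34) stayed between 33 and 35 under every other test, scaling, filter and correction run, with a median between 0.48 and 0.53, except that a required absolute log2 fold change of at least 1 left 1. With that requirement, 1 rose and 2 fell in DU145-Esrrb cells, 0 and 3 members differed in the interaction, and 0 and 0 between untreated pools. In DU145-Esrrb cells, the median of 0.31 was 0.25 with library size alone and 0.28 where every library had to hold 10 counts or more. The exon junction correction gave 4 members that fell and a median of 0.49 there, and 1 higher, 5 lower and a median of -0.020 in the interaction. With the share of the median transcript, an alternative chosen after seeing the data, these were 4, 0.46, 1, 5 and -0.044. RRP9 was among the 5 lower members with the first of these corrections and not with the second. DESeq2 gave 1 higher and 11 lower in the interaction. Direction reversed with the correction for WDR74 in DU145-Esrrb cells (0.091, and 0.079 with the median transcript) and in the interaction (0.047 and 0.036), for NOP14 (0.062 and 0.033) and RRP12 (0.089 and 0.12) in the interaction, and for RRP9 in DU145-Esrrb cells with the median transcript (0.010). Why these values turned was not tested.

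Leaving out 1 library at a time, 31 to 36 members rose and 0 to 0 fell in DU145-pc3.1 cells (median 0.47 to 0.58). In DU145-Esrrb cells 20 to 26 rose and 7 to 7 fell (median 0.25 to 0.37), in the interaction 1 to 5 were higher and 10 to 19 lower (median -0.28 to -0.17), and between untreated pools 0 to 1 were higher and 0 to 4 lower (median -0.085 to 0.027). In the interaction, 1 member was higher without the second DU145-pc3.1 library or 1 of the DY131-treated DU145-Esrrb libraries, 5 without the second DY131-treated DU145-pc3.1 library, and 10 were lower without the second DU145-Esrrb library. Calls in DU145-pc3.1 cells were lost without its first library for GAR1, GNL3 and NPM3, without its second for BYSL, and without its second treated library for NPM3. In DU145-Esrrb cells the largest number of calls lost (5) came without its first library. Where a group is left with 1 library, that library is assumed to vary like the other groups.

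The replicate number could serve as a block in 6 libraries. With the replicate block, 34 members rose and 0 fell in DU145-pc3.1 cells (median 0.51), and between untreated pools 1 was higher and 1 lower (median -0.032). The same 6 libraries without the block gave 34 and 0, and 0 and 1. Same-numbered libraries deviated from their group means with correlations of 0.092, 0.023 and -0.069 over all tested genes. Counting noise can hide a shared batch in such values, so whether these libraries were paired stays unknown. The numbers come from sample titles, and the column headings carry other numbers for some libraries. For DU145-Esrrb cells after DY131, and hence for the interaction, no paired analysis was possible because those libraries carry no replicate number. With 2 libraries a group, the depth and number of libraries limit what could be found, and a member that did not pass is not shown to be unchanged.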

Other observations

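Split by role, the other ribosome biogenesis genes had more rises than falls in DU145-pc3.1 cells, where 18.9% of all tested genes rose and 18.5% fell. In DU145-Esrrb cells the background was 29.2% and 29.5%, and 27.7% and 25.7% with the correction for exon junction share. Of 33 further 40S factors, 24 rose and 0 fell in DU145-pc3.1 cells (median log2 fold change 0.36), and 13 rose and 11 fell in DU145-Esrrb cells (median 0.070), or 16 and 4 with the correction. Of 29 further 60S factors, 20 rose and 1 fell in the first pool (median 0.37), and 9 rose and 9 fell in the second (median 0.071), or 15 and 4 with the correction. RNA helicases of the nucleolus, 13 in all, had 10 that rose and 0 that fell (median 0.39) against 5 and 3 (median 0.18), or 9 and 0 with the correction. The RNA exosome, which trims and degrades precursor RNA, had 4 of 11 that rose and 0 that fell in DU145-pc3.1 cells (median 0.17), and 3 that rose and 5 that fell in DU145-Esrrb cells (median -0.18), or 2 and 2 with the correction. Further factors of polymerase I, 12 in all, had 6 that rose and 0 that fell in the first pool (median 0.20), and 3 and 2 in the second (median -0.077), or 5 and 0 with the correction. Further snoRNP factors, 7 in all, had 2 that rose and 0 that fell in DU145-pc3.1 cells, with the lowest median of these groups (0.12). In DU145-Esrrb cells 2 of the 7 rose and 2 fell (median -0.035), or 1 and 1 with the correction. Medians are without the correction, and whether the groups differ from each other was not tested.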
